A study of Mus musculus with 6 samples.

Results

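The 10 genes described here encode the mouse Notch receptors (Notch1, Notch2, Notch3 and Notch4), their canonical ligands (Jag1, Jag2, Dll1, Dll3 and Dll4) and the non-canonical ligand Dlk1. They were chosen by symbol, as rows of the array to which the platform annotation gives a single gene, and all 10 were found, with 1 row each, among the 19938 genes tested. Expression was measured in whole E13.5 embryonic pancreas, as 3 wild type samples (control pools) and 3 samples labelled Pdx-Cre beta catenin-exon3 floxed (active) (mutant pools), with each pool on its own array. The methods give the mutant genotype as Pdx1-Cre; Ctnnb1tm1Mmt/+, in which Cre driven by the Pdx1 promoter cuts exon 3 out of 1 Ctnnb1 allele, so that the β-catenin made from it is not degraded, and they give 3 pancreata per pool. Cre acts in the pancreatic epithelium and not in the mesenchyme or vessels of the same organ, so each array reads recombined and unrecombined cells together, and fewer cells of a type cannot be told apart from less RNA per cell.

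Notch receptors are transmembrane proteins that are cleaved when a ligand on a neighboring cell binds them. The freed intracellular part enters the nucleus, joins the DNA-binding protein Rbpj and switches on genes such as Hes1. In the embryonic pancreas this signal keeps progenitors from entering the endocrine lineage too early, by holding down Neurog3, and it takes part in the allocation of cells to the tips and the trunk of the branching epithelium. In blood vessels the same receptors and ligands guide sprouting and the coating of vessels by mural cells.

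The receptor genes moved in opposite directions in pancreata with active β-catenin, while the genes of the Jagged ligands had values within the spread of the control pools or close to it. Notch1 and Notch2 fell, Notch4 rose, and of the ligand genes only Dll3 passed the test, as a decrease (adjusted p under 0.05 from limma, n = 3 pools per genotype). The p-values measure the spread between these pools. In all, 3 of the 10 genes were lower, where 7.53% of all genes tested were, and 1 was higher, where 6.59% of all genes were, so that 4 of the 10 passed against a background of 14.1%. The median log2 change of the 10 genes was -0.22, and that of all genes tested was 0.03. The arrays of both genotypes did not overlap for 6 of the 10 genes, compared with 30.9% of all genes.

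The stretches just before the start sites of the 4 genes that passed the test are shown here, 5′ to 3′ on the strand of the gene, as the RefSeq annotation of GRCm38.p6 gives them. All 10 genes matched that annotation, with 11 start sites in all, since Dll1 has more than 1. Of Notch4 the first 240 of the 250 bases are shown. Capitals mark the E-box letters CAGCTG, a sequence that bHLH factors bind. Notch1 lies at chr2:26503823-26504072 (minus strand), Notch2 at chr3:98013288-98013537 (plus strand), Dll3 at chr7:28301786-28302035 (minus strand) and Notch4 at chr17:34564045-34564284 (plus strand).
Notch1: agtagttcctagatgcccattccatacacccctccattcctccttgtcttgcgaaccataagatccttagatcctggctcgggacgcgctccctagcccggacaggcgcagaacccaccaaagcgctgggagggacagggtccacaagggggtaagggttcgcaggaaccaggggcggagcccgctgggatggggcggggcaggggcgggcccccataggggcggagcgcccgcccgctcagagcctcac
Notch2: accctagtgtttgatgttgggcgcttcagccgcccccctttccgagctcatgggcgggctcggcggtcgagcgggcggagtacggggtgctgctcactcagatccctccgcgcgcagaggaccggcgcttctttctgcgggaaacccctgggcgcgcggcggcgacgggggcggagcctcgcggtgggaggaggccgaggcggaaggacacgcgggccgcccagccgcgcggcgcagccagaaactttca
Dll3: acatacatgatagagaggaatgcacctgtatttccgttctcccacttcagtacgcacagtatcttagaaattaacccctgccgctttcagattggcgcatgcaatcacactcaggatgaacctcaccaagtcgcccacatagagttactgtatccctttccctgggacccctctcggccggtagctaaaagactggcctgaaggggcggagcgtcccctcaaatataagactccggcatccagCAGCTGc
Notch4: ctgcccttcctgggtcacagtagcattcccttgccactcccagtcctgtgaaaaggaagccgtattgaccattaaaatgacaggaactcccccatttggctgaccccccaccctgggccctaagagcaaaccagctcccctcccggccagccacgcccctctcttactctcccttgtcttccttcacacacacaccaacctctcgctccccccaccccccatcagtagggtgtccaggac
In the 250 bases before each start site, read on both strands, the TCF/LEF core CTTTGA and the Rbpj core TGGGAA were found at 0 of the 11 start sites of these genes, and at 13.8% and 21.6% of all 32851 start sites. The E-box CAGATG was also found at none of the 11 and at 14.4% of all. CAGCTG was found at 3 of the 11 start sites, those of Dll3 (bases -7 to -2 from the start), Jag1 (bases -82 to -77) and Dll1 (bases -132 to -127), and at 13.0% of all. G and C made up 66.0% of the stretch shown for Notch1, 72.0% for Notch2, 52.0% for Dll3 and 59.2% for Notch4, beside a median of 52.4% over all start sites. These are matches of letters and not measured binding.

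**Figure D1:**
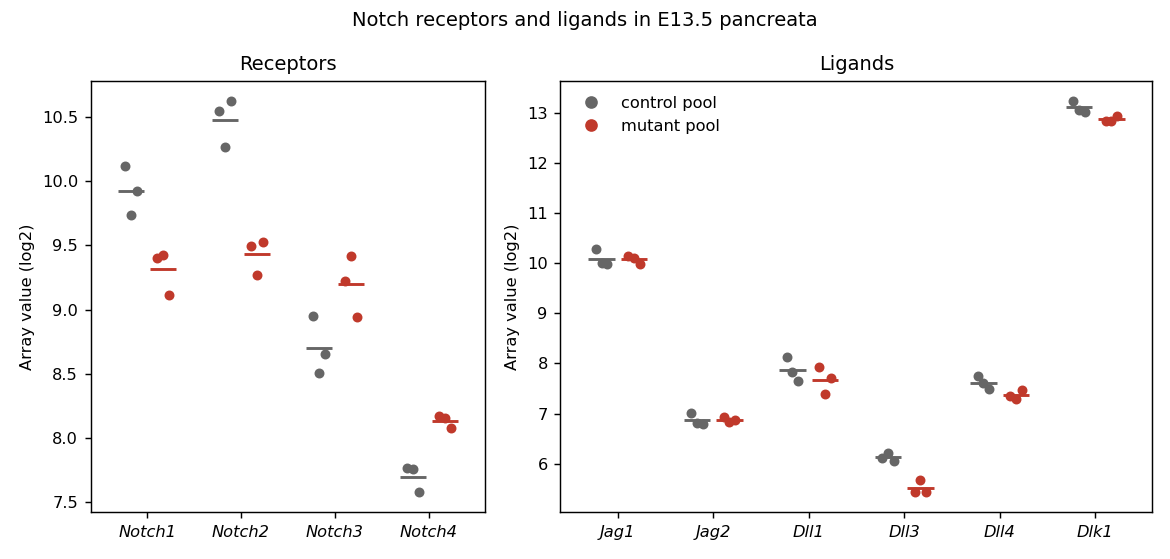
Array values (log2, vertical axes) of the 4 Notch receptor genes (left) and of the 6 ligand genes (right) of E13.5 pancreata. Points are single pools, 3 control (grey) and 3 mutant (red), and horizontal bars are their means; the genotypes do not overlap for Notch1, Notch2, Notch4, Dll3, Dll4 and Dlk1, and levels of different genes are not comparable because each has its own probes.

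Notch2, a receptor of pancreatic progenitors and of many mesenchymal cells, had array values of 10.55, 10.26 and 10.63 (log2) in control pools 1 to 3 and of 9.50, 9.27 and 9.52 in mutant pools 1 to 3. Every mutant pool lay well below every control pool. This was a 2.07-fold decrease (log2 change -1.05, standard error, SE, 0.12, limma adjusted p = 0.000265), and it ranked 380 among the decreases of the 19938 genes. Notch1, the receptor best known for holding progenitors undifferentiated, had values of 10.11, 9.74 and 9.92 (log2) across the control pools and of 9.40, 9.43 and 9.11 across the mutant pools. Here too all mutant pools lay below all control pools, though the spread within each genotype took up a larger part of the gap. Notch1 fell 1.52-fold (log2 change -0.61, SE 0.13, limma adjusted p = 0.00929), and the call did not hold when every row of the table entered the fit (adjusted p = 0.0528).

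Notch4, a receptor found mainly in endothelial cells, went the other way. Its values were 7.76, 7.76 and 7.58 (log2) across the control pools and 8.17, 8.15 and 8.08 across the mutant pools. The mutant pools were close to each other and all above the control pools. The increase was 1.35-fold (log2 change 0.43, SE 0.09, limma adjusted p = 0.0115), and it lost its call without mutant pool 1 (adjusted p = 0.0619). Notch3, the receptor of the mural cells around vessels, had values of 8.95, 8.51 and 8.65 (log2) across the control pools and of 9.23, 9.42 and 8.94 across the mutant pools. Control pool 1 and mutant pool 3 had nearly the same value, so the genotypes overlapped. The log2 change of 0.49 (SE 0.15, 95% interval 0.16 to 0.82) was on the edge of the threshold (limma adjusted p = 0.0541). It passed under 7 of 16 alternative settings, for example without control pool 1 (log2 change 0.62, adjusted p = 0.0317) or without mutant pool 3 (0.62, adjusted p = 0.0248).

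**Figure D2:**
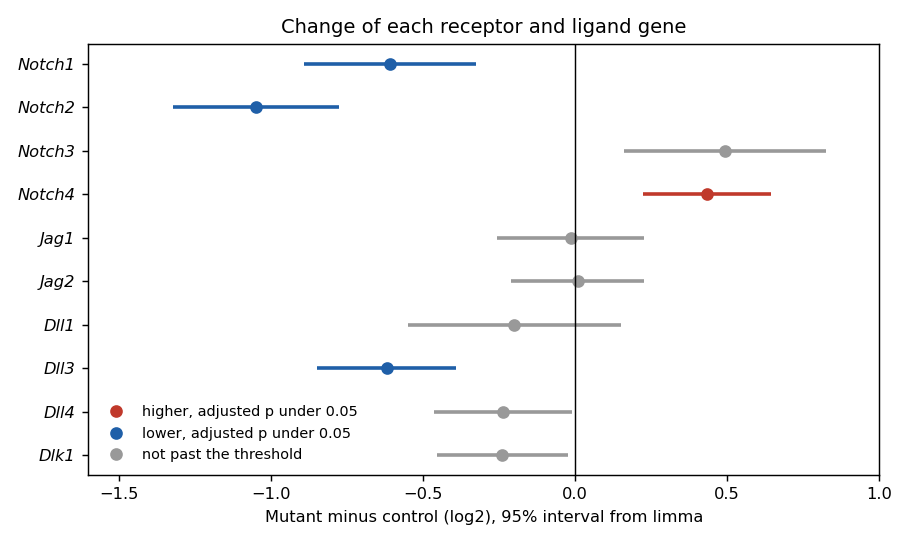
Change of each gene (horizontal axis, mutant minus control, log2) with its 95% interval from limma, from 3 pools per genotype. Notch1, Notch2 and Dll3 (blue) were lower and Notch4 (red) was higher at an adjusted p under 0.05, and the grey intervals of Jag1, Jag2 and Dll1 include 0.

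The receptor genes were also set against each other within each array, in comparisons chosen after their values were seen. The ratio of Notch2 to Notch3 changed by -1.54 on the log2 scale (mutant minus control, SE 0.24) and that of Notch2 to Notch4 by -1.48 (SE 0.19). The ratio of Notch1 to Notch3 changed by -1.10 (SE 0.06) and that of Notch1 to Notch4 by -1.04 (SE 0.14). In each of these pairs the mutant arrays lay below all control arrays. The ratio of Notch1 to Notch2 changed by 0.44 (SE 0.18), again without overlap. The ratio of Notch3 to Notch4 changed by 0.06 (SE 0.17), with overlapping arrays. In all, 5 of the 6 receptor pairs and 4 of the 10 pairs of canonical ligands had no overlap. The share among pairs of all genes was not computed, so these counts have no background. With 3 arrays against 3 the exact two-sided permutation test cannot go below p = 0.1, which adjusted over the 16 receptor and ligand pairs compared is 0.178, so none of these ratios passes a threshold on its own.

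Among the ligand genes, Dll3 showed the clearest difference. Dll3 encodes a Delta-like protein that stays largely inside the cell, blocks Notch in the cell that makes it, and marks neural and neuroendocrine precursors. Its values were 6.12, 6.23 and 6.06 (log2) across the control pools and 5.44, 5.67 and 5.43 across the mutant pools. No mutant pool reached the lowest control pool. The decrease was 1.54-fold (log2 change -0.62, SE 0.10, limma adjusted p = 0.00236) and passed in all 15 alternative settings that measured it. Dll3 and Jag2 are the 2 genes of the 10 whose mean level lay below the median of all genes tested, and low array values compress differences. Every value of Dll3 lay below the medians of the arrays (6.37 to 6.47), and without detection calls its presence cannot be judged.

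Dll1, the ligand of tip progenitors and of cells entering the endocrine lineage, had values of 8.13, 7.84 and 7.66 (log2) across the control pools and of 7.92, 7.40 and 7.71 across the mutant pools. The genotypes overlapped widely, and the pools of each genotype spread over more than the difference between them. The log2 change was -0.20 (SE 0.16, 95% interval -0.55 to 0.15, limma adjusted p = 0.496). Dll4, the ligand of arterial and sprouting endothelium, had values of 7.75, 7.61 and 7.48 (log2) across the control pools and of 7.36, 7.30 and 7.47 across the mutant pools. The genotypes did not overlap, but control pool 3 and mutant pool 3 were almost equal. The log2 change of -0.24 (SE 0.10, 95% interval -0.47 to -0.01) did not pass after adjustment (limma adjusted p = 0.175).

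Jag1, a ligand of the pancreatic trunk, of ducts and of vessels, had values of 10.28, 10.003 and 9.99 (log2) across the control pools and of 10.15, 10.09 and 9.99 across the mutant pools. The mutant pools spread over nearly the same values as the control pools, and control pool 1 was the highest of the 6. The log2 change was -0.02 (SE 0.11, 95% interval -0.26 to 0.23, limma adjusted p = 0.957), and its sign turned with the arrays centred on their medians (0.02). Jag2, a ligand of several embryonic epithelia, had values of 7.02, 6.81 and 6.79 (log2) across the control pools and of 6.93, 6.83 and 6.88 across the mutant pools. The mutant pools fell inside the control range. The log2 change was 0.01 (SE 0.10, 95% interval -0.21 to 0.23, limma adjusted p = 0.976). Small changes of either Jagged gene may be missed with 3 pools, and the ends of those intervals do not mark the smallest change that the test could find. Dll4 and Dlk1, each with a log2 change of -0.24 (SE 0.10), did not pass after adjustment.

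Dlk1 is an imprinted gene whose protein resembles the Delta ligands but lacks the domain by which they bind Notch, and it is abundant in many embryonic tissues. Its values were 13.24, 13.06 and 13.02 (log2) across the control pools and 12.84, 12.83 and 12.92 across the mutant pools. All mutant pools lay below all control pools, by a small margin. The log2 change was -0.24 (SE 0.10, 95% interval -0.45 to -0.02) with a limma adjusted p = 0.147. Among the settings that kept the adjusted threshold of 0.05, it passed with array weights alone (log2 change -0.30, adjusted p = 0.0131), as Dll4 did (-0.28, adjusted p = 0.0206). Both genes also lay under 0.05 before adjustment.

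Other genes of the pathway were described from 5 lists with 47 measured members. Of these 47 genes 3 were higher and 5 were lower, a share near the 14.1% of all genes that passed, and their median log2 change was 0.01. For 21 of them the genotypes did not overlap, against 30.9% of all genes. The lists were not tested against each other. The plot of the pathway lists shows these genes by name.

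**Figure D3:**
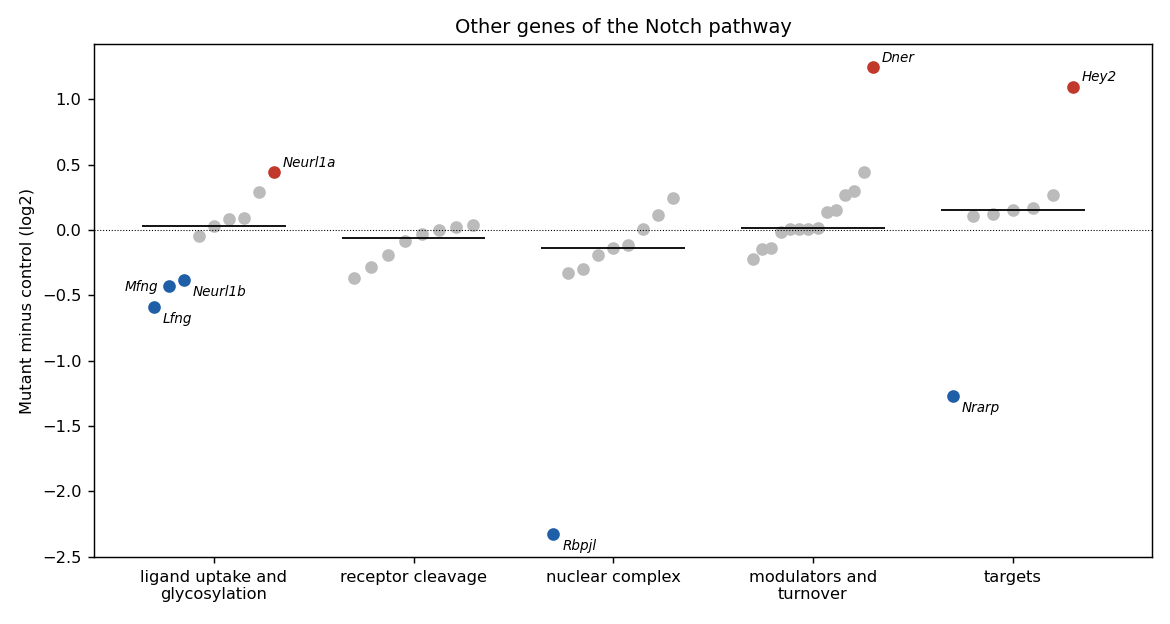
Mutant minus control (log2, vertical axis) of the 47 measured genes of 5 Notch pathway lists, 1 point per gene, from 3 pools per genotype. Black bars are list medians, genes past an adjusted p of 0.05 are named (red higher, blue lower), and grey points did not pass; Rbpjl and Nrarp show the lowest values and Dner and Hey2 the highest.

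Of 9 genes for ligand uptake and for the sugars on Notch, 3 were lower and 1 was higher, where 7.53% and 6.59% of all genes were. Lfng and Mfng encode Fringe enzymes, which extend the sugars on the receptors and so change which ligands they answer to. Lfng had values of 8.60, 8.97 and 8.50 (log2) across the control pools and of 8.03, 8.13 and 8.16 across the mutant pools. Its mutant pools were all lower (log2 change -0.59, SE 0.13, limma adjusted p = 0.0110), and the call was lost without mutant pool 1 and when every row of the table entered the fit (highest adjusted p = 0.0589). Mfng fell from 8.25 to 7.82 (means of 3 pools, log2), without overlap (log2 change -0.43, SE 0.09, adjusted p = 0.00951). The Neuralized ubiquitin ligases, which help ligands to be taken up with the receptor bound to them, split. Neurl1a rose (log2 change 0.44, SE 0.10, adjusted p = 0.0115) and Neurl1b fell (-0.38, SE 0.09, adjusted p = 0.0215). Neurl1a lost its call without control pool 1 or mutant pool 1 (highest adjusted p = 0.0649), and Neurl1b without control pool 1 or 3 or mutant pool 3 and in 2 further settings (highest adjusted p = 0.108). The main ligase of the developing pancreas, Mib1, had a log2 change of -0.04 (SE 0.09, adjusted p = 0.846) and was named after its value was seen.

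None of the 8 measured genes for the cleavage of the receptor passed the test, where 14.1% of all genes tested did. Among them were the protease genes Adam10 and Adam17 and the subunits of γ-secretase. The smallest p in that list was that of the presenilin gene Psen2 (log2 change -0.36, SE 0.12, limma adjusted p = 0.0778). In the nuclear complex 1 of 9 genes passed, against 14.1% of all genes. Rbpjl, which partners Ptf1a in acinar cells in place of Rbpj and does not bind the cleaved receptor, had values of 8.35, 9.59 and 8.55 (log2) across the control pools and of 6.55, 6.73 and 6.23 across the mutant pools. All mutant pools were far lower, and the decrease was 5.02-fold (log2 change -2.33, SE 0.28, adjusted p = 0.000318). Rbpjl is among the pancreatic genes that the study chose from these arrays, so its direction is not independent evidence. Rbpj itself, named after its value was seen, had a log2 change of 0.12 (SE 0.10, 95% interval -0.10 to 0.33, adjusted p = 0.517).

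Of 14 measured modulators 1 passed, against 14.1% of all genes. Dner, a transmembrane protein of neurons with repeats like those of the Notch ligands, had values of 6.61, 6.48 and 6.32 (log2) across the control pools and of 7.78, 7.35 and 8.02 across the mutant pools. The mutant pools varied among themselves but were all above the control pools. Dner rose 2.37-fold (log2 change 1.25, SE 0.16, limma adjusted p = 0.000522). Among the others were Numb, which restrains Notch in dividing cells, at -0.22 (SE 0.09, adjusted p = 0.164), and Dlk2, the closest relative of Dlk1, at 0.01 (SE 0.13, adjusted p = 0.979), both named after their values were seen.

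Of the 7 target genes 1 was higher and 1 was lower, where 6.59% and 7.53% of all genes were. Nrarp, a target that feeds back to limit the cleaved receptor, had values of 8.40, 8.54 and 8.26 (log2) across the control pools and of 7.21, 6.89 and 7.29 across the mutant pools. It was lower in every mutant pool, by 2.41-fold (log2 change -1.27, SE 0.12, limma adjusted p = 8.92e-05). Hey2, a repressor known from arteries and heart, had values of 8.04, 8.32 and 7.90 (log2) across the control pools and of 9.17, 9.11 and 9.28 across the mutant pools. It was higher in every mutant pool, by 2.14-fold (log2 change 1.10, SE 0.12, adjusted p = 0.000177). Hes1, the target through which Notch holds down Neurog3, had values of 9.34, 9.44 and 9.42 (log2) across the control pools and of 9.53, 9.42 and 9.63 across the mutant pools. These ranges overlapped, with a log2 change of 0.13 (SE 0.09, 95% interval -0.08 to 0.34, adjusted p = 0.468). Hes5, Hes7, Hey1 and Heyl had log2 changes between 0.11 and 0.27 and did not pass either (smallest adjusted p = 0.107, for Hey1).

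Cell type markers also differed between the genotypes, and their part in the results for the receptors and ligands was not tested. The pancreatic primordium was present in the control pools, with a mean marker level of 9.02 to 9.27 (log2), against 7.45 to 7.49 in the mutant pools, where 5 of its 7 measured markers were lower, led by Pdx1 (log2 change -4.16, SE 0.10). Proendocrine cells are known to make Dll1 and Dll3, and 10 of 10 measured markers of these cells were lower, with mean levels of 9.19 to 9.56 in the control pools and of 6.47 to 6.54 in the mutant pools. Neurog3 had a log2 change of -4.61 (SE 0.19), Dll3 one of -0.62 (SE 0.10) and Dll1 one of -0.20 (SE 0.16). Tip and acinar markers were lower in 8 of 8 (mean levels 10.16 to 11.04 against 6.47 to 6.82), and 6 of 6 measured neural and glial markers were lower (7.78 to 7.92 against 6.61 to 6.66). General epithelial markers were lower in 10 of 12, with mean levels of 9.73 to 9.92 in the control pools and of 8.88 to 8.98 in the mutant pools. The mutant levels of the tip and acinar, proendocrine and neural lists lay close to the medians of the arrays (6.37 to 6.47), and without detection calls their presence in the mutant pools cannot be judged. All 8 measured genes of the β-catenin response were higher in the mutant pools, led by Lgr5 (log2 change 4.44, SE 0.11). Of all genes tested 7.53% were lower and 6.59% were higher. Pdx1, Neurog3, Lgr5 and further markers are among the genes that the study chose from these arrays. Their direction is therefore not independent evidence. The whole-transcript value of Ctnnb1 differed by 0.28 (log2, SE 0.11, limma adjusted p = 0.148), which does not check the loss of exon 3.

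Of 15 endothelial markers 5 rose and none fell, where 6.59% and 7.53% of all genes tested did, so that 10 missed the threshold. The list had mean levels of 8.65 to 8.76 (log2) in the control pools and of 8.97 to 9.14 in the mutant pools. Those that rose were led by Sox17, which the endoderm expresses as well (log2 change 1.99, SE 0.12), and the calls of Sox18 and Flt4 were lost without some of the arrays, that of Sox18 also with the replicate number as a block (adjusted p = 0.0938). Kdr (0.02), Eng (-0.03) and Robo4 (-0.32) (log2 changes) were among the 10 that missed it, and are named with their values known. Of 10 mural markers 6 were higher and 2 were lower, with mean levels of 8.94 to 9.02 against 9.21 to 9.24. The smooth muscle actin gene Acta2 (log2 change 1.50, SE 0.10) was among those that rose, and Anpep (-2.07, SE 0.13) and Rgs5 (-0.95, SE 0.10) fell. The study reports more mesenchyme stained for smooth muscle actin in these mutants from E13.5, and it chose Acta2 from these arrays. Acta2 therefore cannot be read here as a marker of mural cells alone. Mesenchymal markers were mixed, with 2 of 10 higher and 3 lower, and a median log2 change of -0.11. Their mean levels were 10.16 to 10.34 in the control pools and 9.87 to 10.03 in the mutant pools. Prrx1 (log2 change -2.49, SE 0.14) had by far the largest change of the list and weighs on these means. Zeb1 also fell (-0.89), and Lum rose (0.84), with its call lost without some of the arrays.

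The difference of each gene from the mean of 12 general epithelial or of 15 endothelial genes was taken within each array. Within a list this adds the same amount to the change of every gene, so their order stays that of the genes alone. The difference between Notch2 and the epithelial genes changed by -0.19 (log2, mutant minus control, SE 0.18), with overlapping arrays. For Notch1 that change was 0.25 (SE 0.20), also with overlap, and for Dll3 it was 0.24 (SE 0.11), with no overlap. The other genes had larger positive changes relative to the epithelial genes, all without overlap. The mean of that list was itself lower in the mutant pools (8.88 to 8.98, log2) than in the control pools (9.73 to 9.92). A gene with no change of its own therefore gets a positive value here, as Jag1 and Jag2 did. The share of all genes that would separate in this way was not computed. The log2 changes of the 12 epithelial genes ran from -1.84 for Krt8 to 0.002 for Prom1, with a median of -0.78. Which genes lie near 0 therefore depends on the genes in the list. Jag1 changed by 0.84 (SE 0.14), Jag2 by 0.86 (SE 0.11), Dll1 by 0.66 (SE 0.19), Dll4 by 0.62 (SE 0.10) and Dlk1 by 0.62 (SE 0.10). Notch3 and Notch4 had the highest values, 1.35 (SE 0.24) and 1.29 (SE 0.07).

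Relative to the endothelial genes most values were negative. The mean of this list was itself higher in the mutant pools (8.97 to 9.14, log2) than in the control pools (8.65 to 8.76), which lowers every value. Notch4 changed by 0.08 (SE 0.07) and Notch3 by 0.14 (SE 0.20), both with overlapping arrays. With the median of the endothelial list in place of its mean, Notch4 changed by 0.27 (SE 0.08) without overlap and Notch3 by 0.33 (SE 0.16) with overlap, and Jag1 (-0.18) and Jag2 (-0.16) were then nearer to 0 than either. Dll4, another endothelial gene, changed by -0.59 (SE 0.07) relative to the same list, with no overlap. The values of the remaining genes were negative as well, from -0.35 for Jag2 (SE 0.05) to -1.40 for Notch2 (SE 0.13). The median of the list moved each value up by the same 0.19, and none turned its sign. The exact two-sided permutation test of each of these 20 values cannot go below p = 0.1, and the smallest value adjusted over the 20 was 0.125, so they are given as sizes with their errors.

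**Figure D4:**
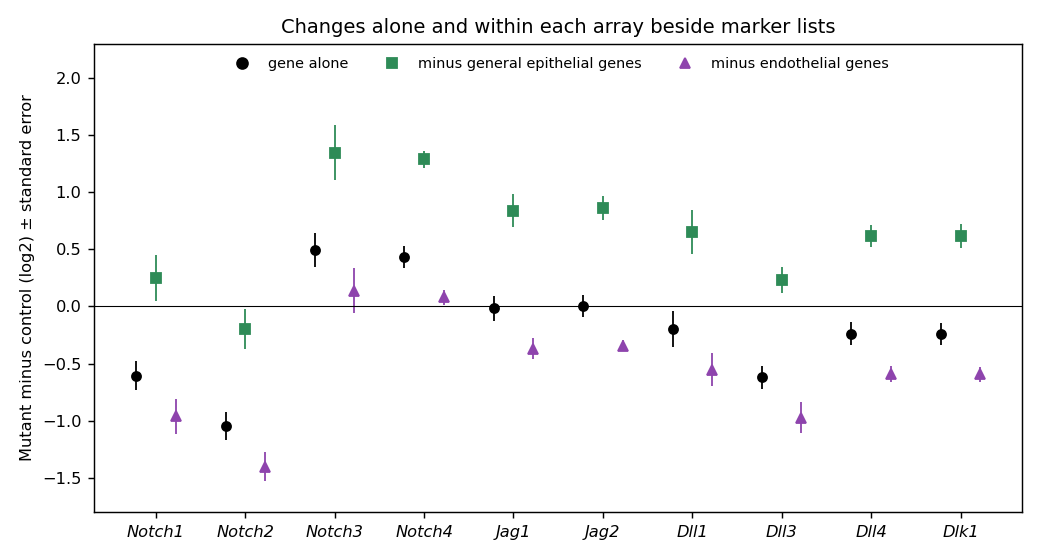
Mutant minus control (log2, vertical axis) of each gene alone (black circles, limma) and of its within-array difference from the mean of 12 general epithelial genes (green squares) or 15 endothelial genes (purple triangles), each with its SE, from 3 pools per genotype. Notch1, Notch2 and Dll3 lie nearest to 0 beside the epithelial genes, and Notch3 and Notch4 beside the endothelial genes, where Jag1 and Jag2 are nearest with the median of the list in place of its mean. The epithelial list itself was lower and the endothelial list higher in the mutant pools, which moves all squares up and all triangles down. Within a list this shift is the same for every gene, so the order of the genes is that of the circles.

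For the genes past the test, the genes with the most similar profile were sought among all genes tested, by the distance between profiles over the 6 arrays after each gene was centred on its own mean (log2 units). The nearest to Notch2 were Ddr2, a receptor for collagen, at a distance of 0.14 and Arhgap20 at 0.19. Those nearest to Notch1 were Celsr1, a cadherin of planar cell polarity, at 0.06 and Lamc1, a laminin chain, at 0.12. Dll3 was nearest to Lingo1 (0.09) and to the neuronal tubulin gene Tubb3 (0.09), both expressed in neurons. Notch4 was nearest to Adamts18 (0.06) and Skp2 (0.08). With 6 arrays in 2 genotypes these distances mostly reflect a change of like size between genotypes, and they are given as a description.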

How the data were processed

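The Notch genes and all lists were chosen with earlier results of these data known. RNA of 3 control and 3 mutant pools was hybridized to Affymetrix Mouse Gene 1.0 ST arrays. The values deposited by the authors are log2 expression values, 1 per transcript cluster. Background correction, summarization, normalization and build were not given in the sources used here. The medians of the arrays ran from 6.37 to 6.47, and no further scaling or filter was applied. With no detection calls or probe signals, only the number of arrays speaks for the precision.

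The platform annotation gave 1 symbol to 21789 of 35556 rows, several to 1621 and none to 12146. Only rows with 1 symbol were tested, and the row with the highest mean stood for a gene. Entrez identifiers of 21698 rows matched RefSeq (GRCm38.p6) and no symbol changed. Mutant and control were compared by limma 3.58.1 in R 4.3.3 (lmFit, eBayes, defaults) with Benjamini-Hochberg adjustment over 19938 genes and a threshold of 0.05, a step tested on simulated data. Some genes of the lists are not reported here, and counts are over the measured ones. Named were all 10 genes, Ctnnb1, up to 4 genes of each pathway list (up to 3 of each marker list) that passed with the largest changes or, where none passed, the gene of smallest p, and the 2 nearest genes by profile. For marker lists only some of these are printed. Tables and figures used Python 3.11.15, pandas 2.3.3 and matplotlib 3.10.9. Alternatives were a block for the replicate number, leaving out single arrays, other centrings, quantile normalization, filters on level, other row rules, priors, array weights and thresholds.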

Additional observations from a re-analysis of the deposited data

How the results depend on the processing

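All 10 genes were above the lower quartile of level, and 8 above the median. Notch2 and Dll3 passed in every alternative that measured them, and Notch1, Notch4, Notch3, Dll4 and Dlk1 changed their calls as given with their values. The count of the 10 genes that were higher, 1, ranged from 0 to 2 when single arrays were left out (0 without mutant replicate 1, 2 without control replicate 1 or mutant replicate 3). It was 2 with arrays centred on their medians, with a filter at the median or at the lower quartile of level, with a trended and robust prior, with array weights and at an unadjusted p under 0.05, and 0 at an adjusted p under 0.01. The count that were lower, 3, became 5 with array weights and at an unadjusted p, and 2 with all rows in the fit or, of the 8 genes then left, with the filter at the median. Of the 47 pathway genes, 5 were higher with median centring or above the lower quartile, 10 higher and 10 lower with array weights, 9 higher and 10 lower at an unadjusted p, and 3 lower with all rows in the fit or at an adjusted p under 0.01. Of all genes, 843 to 1328 were higher without single arrays (843 without mutant replicate 1), 751 with all rows in the fit, 3025 higher and 2422 lower with array weights, 723 higher at an adjusted p under 0.01, and 2695 higher and 2386 lower at an unadjusted p. The log2 change of Jag1 turned sign with median centring (0.0224) and ranged from -0.0658 to 0.0802 without single arrays, and that of Jag2 from -0.0325 to 0.0804. The causes were not tested. Taking the median of a marker list in place of its mean kept the sign of all 20 within-array values.

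Same-numbered pools did not deviate together (correlations of their deviations from the group means of 0.01, -0.15 and -0.05), so the numbers were not taken as pairs. With the replicate block 1 of the 10 genes was higher and 3 were lower, 3 and 5 of the pathway genes.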

Other observations

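Besides its own row, Notch4 is named together with Sympk in 6 rows of the array, which were left out because a row with several symbols names no gene. Their values lay between 3.72 and 5.28 (log2) in all pools, the genotypes overlapped in each of the 6, and a pair of them held identical values.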
